A study of Mus musculus with 19 samples.

Results

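The genes described here are the cytosolic ribosomal protein genes of the mouse heart, 85 of the 25239 gene symbols in the count table. They were chosen by name alone: symbols made of Rpl or Rps and a number, with an optional suffix letter, together with the stalk genes Rplp0, Rplp1 and Rplp2 and the laminin receptor gene Rpsa. S6 kinase genes and processed pseudogenes were left out. Of the 85, 52 carry names of the large subunit and 33 are of the small subunit, counting Rpsa as small.

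Each ribosome joins a large and a small subunit, in which ribosomal proteins fold and stabilise the ribosomal RNA. Their genes are among the most strongly transcribed in any cell, and their mRNAs begin with a cytosine followed by a run of pyrimidines (the terminal oligopyrimidine, or TOP, motif), through which mTOR signalling and Larp1 adjust their translation together. Striated muscle also makes Rpl3l, a paralog that takes the place of Rpl3 in part of the ribosomes of heart and skeletal muscle.

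The series measured heart RNA of wild-type and Mcm8 knockout mice by RNA sequencing; Mcm8 encodes a helicase of homologous recombination repair. Mice had received PBS or LCWE, the agent of a mouse model of Kawasaki disease, abbreviated from Lactobacillus casei cell wall extract. The 4 groups were wild type with PBS (5 libraries), knockout with PBS (3), wild type with LCWE (6) and knockout with LCWE (5). Strain, age, the knockout allele, the dose of LCWE and the time of collection are not given in these sources, and neither is whether each library is 1 animal. The p-values therefore measure the spread between these libraries only. Each label also carries a sample number of unstated meaning, and 11 libraries have numbers from 100 to under 200, called the number range here: wild-type PBS replicates 1 to 4, knockout PBS replicate 1, and replicates 1 to 3 of both LCWE groups. Comparisons were made over all 19 libraries and again within the number range.

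Libraries held 11853233 to 16145911 counts. Mcm8 checked the labels: it was at 2.58 to 5.18 CPM (counts scaled to a common library total) in the 11 wild-type libraries and at 0.13 to 0.90 CPM in the 8 knockout libraries, with no overlap. The cardiomyocyte markers (Myh6, Tnnt2, Actc1 and 5 more) summed to 79540 to 118300 CPM per library, so the defining markers of heart muscle were present throughout.

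In wild-type PBS hearts, ribosomal protein transcripts took 2.26%, 2.11%, 2.62%, 2.61% and 2.77% of all counts. Levels of different genes were compared per length, as CPM per kilobase of transcript (RPKM). The stalk gene Rplp1, whose acidic protein helps recruit elongation factors, stood highest at 1328 ± 112 RPKM (SD, n = 5). Rps2, at 953 ± 65.8 RPKM, and Rplp0, the base of the stalk, at 908 ± 72.2 RPKM, followed. The ranges of Rps2 and Rplp0 overlapped, so their order does not exceed the spread. The paralogs named here were mostly low: Rpl22l1 was at 18.2 ± 4.50 RPKM, Rpl7l1 at 23.8 ± 1.40, Rps4l at 48.9 ± 10.6 and Rps27l at 83.7 ± 11.2 (SD, n = 5 each). Rpl3l was the exception among them at 228 ± 25.7 RPKM, beside 192 ± 24.0 RPKM for Rpl3, and the ranges of this pair overlapped.

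Of the 85 genes, 80 passed the filter on low counts and 5 did not. Rpl10l, a testis paralog, had no count in any library, which allows up to 3 counts in each, and Rpl32l and Rpl39l averaged 1.9 counts each. The other untested genes, Rpl26 and Rpl30, encode core ribosomal proteins and averaged 0.1 and 4.4 counts per library. The core genes Rps27 (13.8 counts) and Rpl34 (39.5 counts) were tested but also nearly empty. GENCODE names 6 pseudogenes of Rpl26, 9 of Rpl30, 2 of Rpl34 and 1 of Rps27, and how reads matching several copies were counted is not stated in these sources. The values of these 4 core genes are therefore uncertain, and their low counts are no measure of the transcripts.

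Promoter sequences of 64 of the 85 genes were found in RefSeq (GRCm38.p6). A cytosine followed by at least 4 pyrimidines (C or T, on the transcribed strand) lay exactly at an annotated start in 14 of the 64 (21.9%), against 3.03% of the 11292 tested genes with a promoter entry. Allowing the run to begin within 5 bases of the start gave 30 of 64 (46.9%) against 24.0%. The lines below show 40 bases before the start and 20 from it, 5′ to 3′, with the pyrimidine run that opens at the start in capitals. Rps6 and Rpl38 were chosen as clear examples of the motif. Rps28 had the largest and Rpl3l the smallest fold change with LCWE in wild type within the number range, and Rpl4 was the lowest of the well-counted core genes there.
Rps6, chr4:86857348-86857407, minus strand: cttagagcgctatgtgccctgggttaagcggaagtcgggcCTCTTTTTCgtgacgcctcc
Rpl38, chr11:114668540-114668599, plus strand: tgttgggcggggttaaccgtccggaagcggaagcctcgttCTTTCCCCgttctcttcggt
Rps28, chr17:33824543-33824602, minus strand: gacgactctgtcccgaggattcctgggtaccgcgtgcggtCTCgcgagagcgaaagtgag
Rpl4, chr9:64173347-64173406, plus strand: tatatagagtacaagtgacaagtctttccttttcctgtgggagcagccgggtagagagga
Rpl3l, chr17:24727786-24727845, plus strand: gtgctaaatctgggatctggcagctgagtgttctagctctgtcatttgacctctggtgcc
The run was 9 bases long in Rps6, 8 in Rpl38 and 3 in Rps28. None opened at the start shown for Rpl4 or Rpl3l, although a pyrimidine stretch stands upstream of the annotated start of Rpl4. A start annotated a few bases away would change these matches.

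The ribosomal protein genes moved almost as 1 block across the 19 libraries. To follow them, each gene's log2 CPM was set against its mean in wild-type PBS, and the median over the 80 tested genes was taken in each library. It was -0.12, -0.22, 0.05, 0.11 and 0.18 in wild-type PBS and 0.16, -0.06 and -0.10 in knockout PBS. In knockout LCWE it was 0.11, 0.10, 0.29, 0.57 and 0.17. Wild-type LCWE ran from -0.07 through a median of 0.19 to 0.94, with replicates 2 and 3 at 0.90 and 0.94 and the other 4 libraries at or below 0.21. Replicates 2 and 3 thus lay far above the rest of wild-type LCWE, and knockout LCWE replicate 4 was the highest of its group. In wild-type LCWE replicates 2 and 3 the share of all counts was 4.37% and 4.44%, in knockout LCWE replicate 4 it was 3.55%, and in the other 16 libraries 2.11% to 2.92%.

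**Figure D1:**
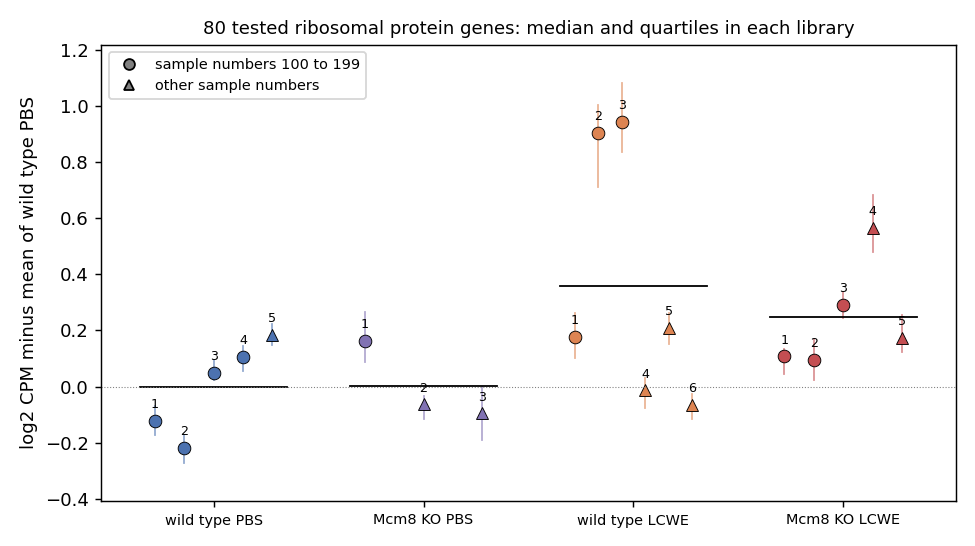
Median (point) and quartiles (vertical line) of the 80 tested ribosomal protein genes in each library, as log2 CPM minus the gene's mean in wild-type PBS. Replicate numbers stand above the points, circles are libraries of the number range, and horizontal lines are group means. Wild-type LCWE replicates 2 and 3 lie at 0.90 and 0.94, above the other 17 libraries.

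Large and small subunit genes shared this pattern: in wild-type LCWE replicate 3 the medians were 0.93 and 0.98, and in knockout LCWE replicate 4 they were 0.55 and 0.59. Individual genes kept close to the block. The difference of Rpl13 from the median of the other genes had an SD of 0.036 log2 units over the 19 libraries. The largest SDs were those of Rps27 (0.51), Rpl3l (0.50), Rpl34 (0.46), Rps4l (0.31) and Rpl7l1 (0.28). Rps27 and Rpl34 are among the nearly empty core genes, while Rpl3l, Rps4l and Rpl7l1 are paralogs.

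**Figure D2:**
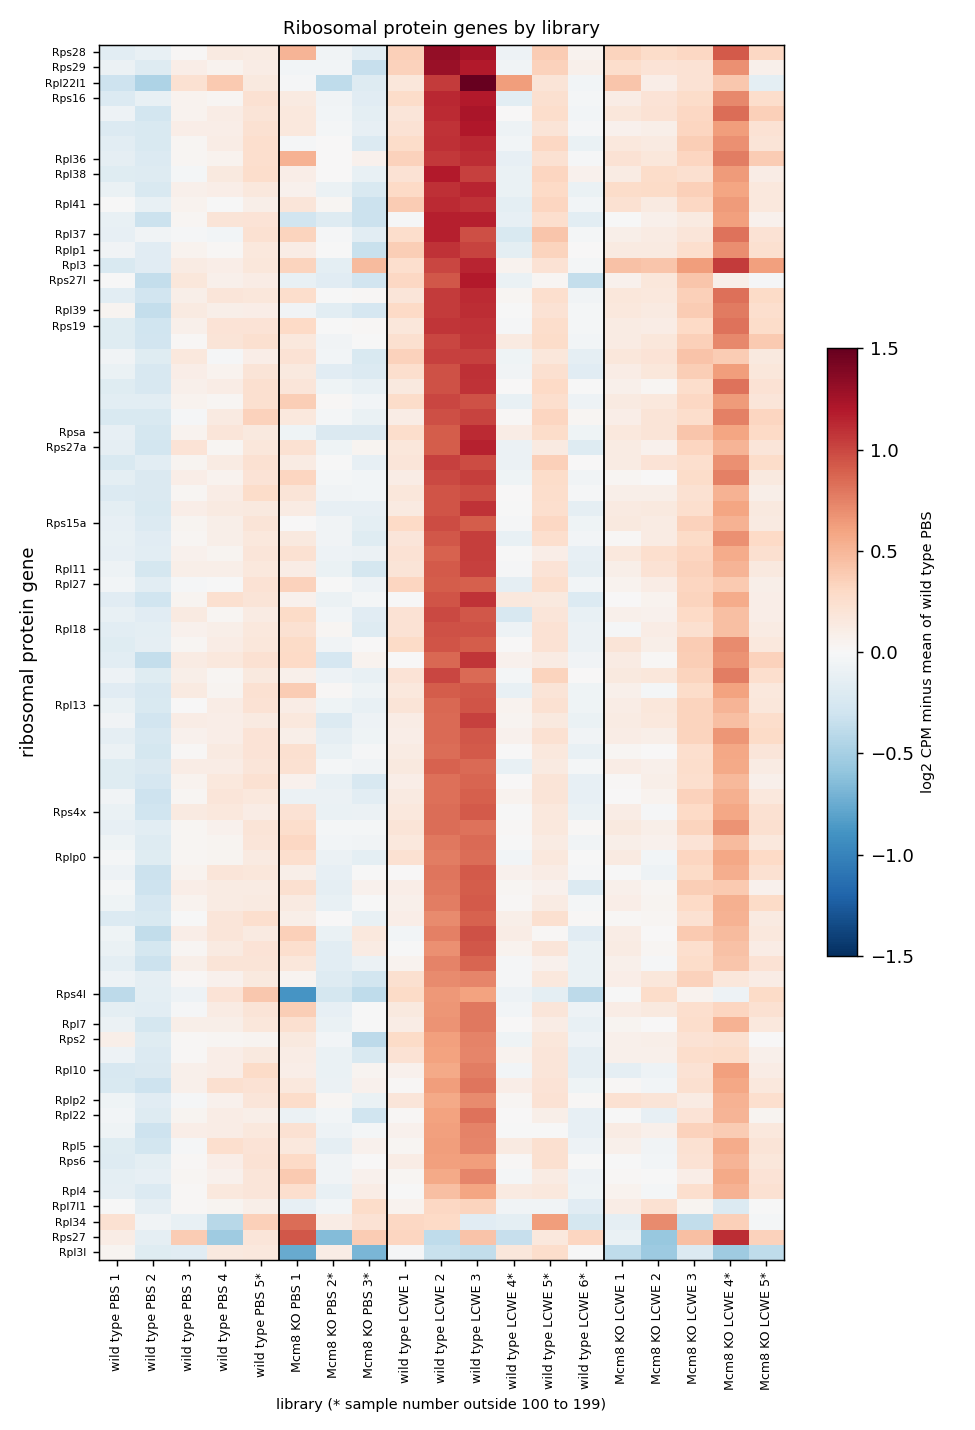
Log2 CPM minus the mean of wild-type PBS for the 80 tested ribosomal protein genes (rows, ordered by fold change of LCWE against PBS in wild type within the number range) in the 19 libraries (columns; an asterisk marks libraries outside that range); rows of genes described in the text carry names. The columns of wild-type LCWE replicates 2 and 3 are raised in nearly every row, and Rpl3l, in the bottom row, is not raised in them.

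Over all wild-type libraries the ribosomal protein genes were not called between LCWE and PBS. edgeR's quasi-likelihood test with Benjamini-Hochberg adjustment called 0 of the 80, as it called 0% of all 14301 tested genes. DESeq2 and limma-voom also called 0 of the 80. The median log2 fold change of the 80 was 0.43 beside 0.01 over all tested genes, 79 lay above 0, and 60 had an unadjusted p under 0.05. The 3 genes with the smallest p were Rps29 (log2 fold change 0.64 ± 0.21 SE), Rps28 (0.66 ± 0.23) and Rpsa (0.50 ± 0.18), each with an adjusted p of 0.772 by edgeR. The largest fold change was that of Rpl22l1, at 0.67 ± 0.24. For none of the 80 genes did the LCWE and PBS libraries separate completely, and of all tested genes 0.42% were higher and 0.28% lower in every LCWE library. Without wild-type LCWE replicates 2 and 3 the median was 0.07 and 0 genes had an unadjusted p under 0.05.

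Within the number range, 64 of the 80 ribosomal protein genes rose with LCWE in wild type and none fell (3 LCWE against 4 PBS libraries, edgeR). Over all tested genes 8.72% were called in either direction and 5.43% were called higher. The median log2 fold change of the 80 was 0.75, against -0.02 for all tested genes. Of the large subunit genes 35 of 47 rose, and of the small subunit genes 29 of 33. In 50 of the 80 (62.5%) every LCWE library lay above every PBS library, which held for 11.9% of all tested genes.

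Rpl41, which encodes a very short peptide of the large subunit, was at 282, 263, 294 and 282 CPM in the 4 PBS libraries and at 369, 619 and 601 CPM in the 3 LCWE libraries. The groups did not overlap, and replicate 1 lay much nearer to PBS than replicates 2 and 3. Its log2 fold change was 0.90 ± 0.15 SE (adjusted p = 0.0131, edgeR). The stalk gene Rplp1 went from 639, 586, 683 and 671 CPM to 855, 1396 and 1339 CPM. It showed the same order of libraries, with a log2 fold change of 0.87 ± 0.15 (adjusted p = 0.0131, edgeR). Rps28, a short protein near the mRNA exit of the small subunit, was at 78.1, 80.3, 88.3 and 95.8 CPM with PBS and 111, 217 and 207 CPM with LCWE. At 1.04 ± 0.18 it had the largest log2 fold change, followed by the small subunit gene Rps29 at 1.01 ± 0.18 (adjusted p = 0.0131 for both, edgeR). Rpl36 (0.92 ± 0.16) and Rpl27 (0.77 ± 0.14), both of the large subunit, completed the 6 genes with the smallest p.

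**Figure D3:**
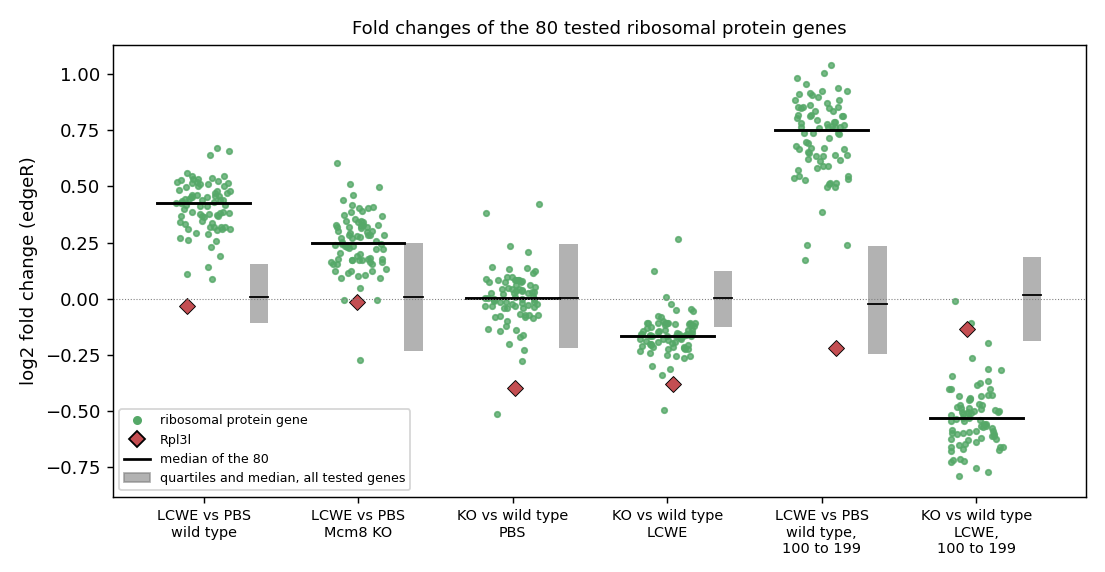
Log2 fold changes from edgeR of the 80 tested ribosomal protein genes (green points; Rpl3l as a red diamond) in 6 comparisons, with their median (thick line) and, in grey, the quartiles and median of all 14301 tested genes. The medians of the 80 are 0.43, 0.25, 0.00, -0.16, 0.75 and -0.53 from left to right. The comparisons share groups and are not independent.

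Some ribosomal proteins are also known for roles beyond the ribosome body. Rps6, the substrate of S6 kinase, went from 303, 313, 353 and 372 CPM to 376, 530 and 535 CPM, a log2 fold change of 0.50 ± 0.14 (adjusted p = 0.0422, edgeR). Its groups did not overlap, and again replicate 1 was nearest to PBS. Rps19, the gene most often mutated in Diamond-Blackfan anaemia, rose by 0.85 ± 0.19 on the log2 scale. Rpsa (0.81 ± 0.18), Rps27a, which is made as a fusion with ubiquitin (0.81 ± 0.19), and Rplp0 (0.65 ± 0.15) also rose. Rplp2, the partner of Rplp1 in the stalk, rose by 0.53 ± 0.12 (adjusted p = 0.027, edgeR), but its value is -0.13 once transcript length is taken into account, as described below. Rpl11 and Rpl5 bind Mdm2 together with the 5S ribosomal RNA. Rpl11 rose by 0.77 ± 0.17, and Rpl5 was at 0.51 ± 0.17 with an adjusted p of 0.0704 (edgeR).

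The number called changed with single libraries, among all genes as well. Without wild-type LCWE replicate 2 it was 0 of the 80 (0.042% of all genes called), and without replicate 3 it was 1 (0.622%). Without replicate 1 it was 77, with 22.1% of all genes called. Without wild-type PBS replicate 1, 13 of the 80 were called (2.23% of all genes), and without replicate 2, 8 were (1.08%). With only the 2 groups compared in the fit, 36 were called (3.44%). Without both LCWE replicates 2 and 3 the LCWE group holds 1 library, at a median of 0.21 against PBS, with no replicate check. Outside the number range wild-type PBS has 1 library, so the comparison could not be repeated there, and in wild-type LCWE replicates 4 to 6 the block medians were -0.01, 0.21 and -0.07.

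In wild-type LCWE replicates 2 and 3, where ribosomal protein genes were highest, short transcripts were high in general. Among genes other than ribosomal protein genes, the median deviation from wild-type PBS was taken for 991 transcripts of up to 1000 bases and for 2431 of over 5000 bases. The short-minus-long difference was 0.73 and 0.98 log2 units in wild-type LCWE replicates 2 and 3, and -0.35 to 0.25 in the other 17 libraries. Knockout LCWE replicate 4, with a block median of 0.57, was at 0.25. Wild-type LCWE replicate 5, with a block median of 0.21, was at 0.23. The 80 tested ribosomal protein genes have a median transcript length of 833 bases, against 2864 for the other tested genes. Across the other 13993 genes, fold change in the number range fell with length (Spearman's rho -0.50), and across the 80 it did so as well (rho -0.35). Genes are not independent replicates, and these coefficients describe the libraries only.

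**Figure D4:**
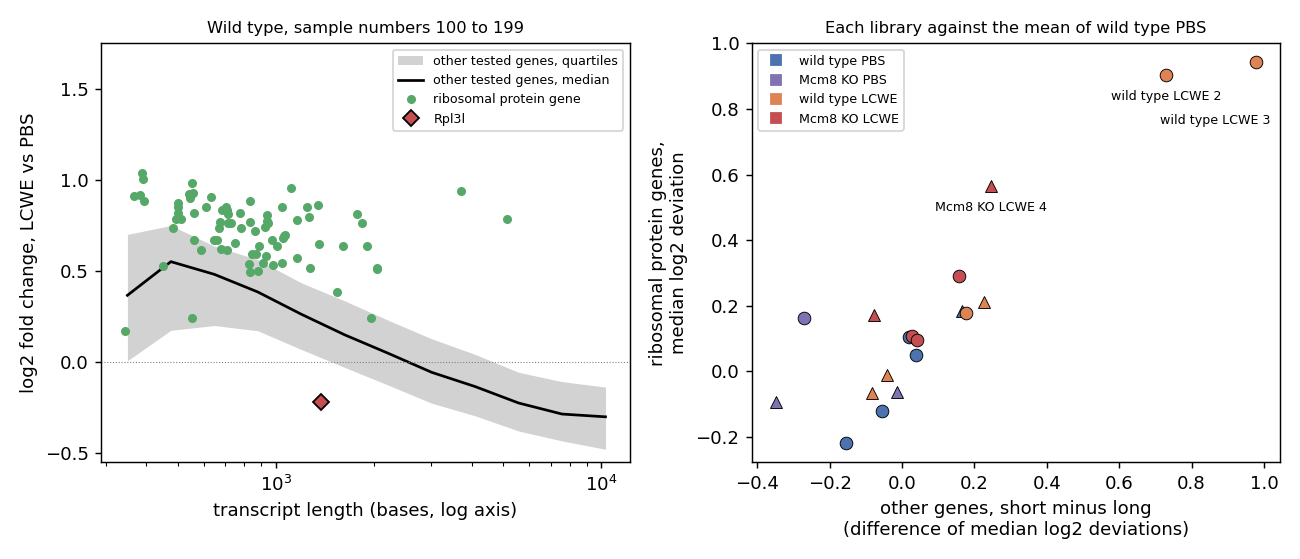
Left: log2 fold change of LCWE against PBS in wild type within the number range over transcript length (log axis), for ribosomal protein genes (points) and the median and quartiles of the other tested genes. Right: for each of the 19 libraries, the median log2 deviation of the ribosomal protein genes over the short-minus-long difference of the other genes; circles are libraries of the number range. Wild-type LCWE replicates 2 and 3 are highest on both axes of the right panel.

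Fold changes in the number range were also set beside those of other genes of like length, without a test of the difference. Among transcripts of over 500 to 750 bases their median fold change was 0.79 (n = 23, 19 called higher) and that of other genes 0.50 (n = 334, 38.0% called higher). Among transcripts of over 1000 to 1500 bases the medians were 0.69 (n = 15, 13 called higher) and 0.25 (n = 1403, 12.7% called higher). When each library's trend with length was removed in the fit, 5 of the 80 were called, the median was 0.27, and 1.46% of all genes were called. The 5 were Rps15a, Rps16, Rpl18, Rpl3 and Rpsa, with log2 fold changes of 0.62 to 1.01. Rps15a has an annotated length of 5130 bases, far above its coding size, which raises its adjusted value. The other called genes also had annotated lengths above the median of the 80 (833 bases). They were 1834 bases for Rpl18, 1768.5 for Rpsa, 1351 for Rpl3 and 1109 for Rps16. Rps20, annotated at 3706 bases, had the largest adjusted log2 fold change, 1.07, and was not called (adjusted p = 0.0531, edgeR). How far annotated length enters these calls was not tested.

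In the knockout, ribosomal protein genes lay slightly higher with LCWE than with PBS, without any call. The median log2 fold change of the 80 was 0.25 against 0.01 for all tested genes, and 76 lay above 0. edgeR called 0 of the 80, while 2.9% of all tested genes were called. DESeq2 and limma-voom also called 0, and 3 of the 80 had an unadjusted p under 0.05 by edgeR. In 16 of the 80 (20%) all 5 LCWE libraries lay above all 3 PBS libraries, against 4.73% of all tested genes. The 3 genes with the smallest p were Rps4l (0.61 ± 0.23, adjusted p = 0.119), Rpsa (0.50 ± 0.22, adjusted p = 0.177) and Rpl39 (0.51 ± 0.24, adjusted p = 0.206). Rpsa was at 750, 675 and 673 CPM with PBS and at 871, 892, 1043, 1174 and 958 CPM with LCWE, with no overlap. It passed when wild-type LCWE replicates 2 and 3 were left out of the shared estimate of spread (0.48, adjusted p = 0.03, edgeR), as did Rpl39 (0.50, adjusted p = 0.0438), with 6.66% of all genes called. With knockout LCWE replicate 4 left out as well, Rpsa alone passed (0.42, adjusted p = 0.0439), with 6.78% of all genes called.

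Between the genotypes under PBS the ribosomal protein genes did not differ as a block. The median was 0.00, 41 of the 80 lay above 0, and edgeR called 0 of them with 0.601% of all genes called. DESeq2 and limma-voom also called 0, and 2 had an unadjusted p under 0.05: Rps4l at -0.51 ± 0.23 (adjusted p = 0.217) and Rpl3l at -0.40 ± 0.18 (adjusted p = 0.232, edgeR). For no gene of the 80 were the groups separate, while 4.15% of all tested genes were higher and 3.52% lower in every knockout library.

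Under LCWE the knockout was called lower or higher than wild type in 0 of the 80 by edgeR, where 0.00699% of all tested genes, Mcm8 alone, were called. DESeq2 and limma-voom called 0 of the 80. The median was -0.16 with 3 genes above 0, and Rpl3l (-0.38 ± 0.15, adjusted p = 0.833, edgeR) was the only member with an unadjusted p under 0.05. Without wild-type LCWE replicates 2 and 3 the median turned to 0.17. Within the number range the median was -0.53 and all 80 lay below 0. edgeR called 0 of them and 0% of all genes, but 72 had an unadjusted p under 0.05. DESeq2 called 30 of the 80, all lower, with 1.83% of all genes called, and limma-voom called 0. The smallest p belonged to Rplp1 (-0.67 ± 0.16), Rpl37 (-0.71 ± 0.17) and Rpl41 (-0.67 ± 0.16), each with an adjusted p of 0.211 (edgeR). Without wild-type LCWE replicate 1, 74 were called lower, with 9.13% of all genes called. Without replicates 2 and 3, which leaves 1 wild-type LCWE library, the median was 0.00. The comparison uses the same 3 wild-type LCWE libraries as the one against PBS.

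The LCWE effect was not shown to differ between the genotypes. The interaction called 0 of the 80 and 0% of all genes by edgeR, no member had an unadjusted p under 0.05, and DESeq2 and limma-voom called 0 of the 80. The smallest p was that of Rps4l, at 0.42 ± 0.29 (adjusted p = 0.731, edgeR). The median of -0.15 turned to 0.17 without wild-type LCWE replicates 2 and 3.

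Rpl3l departed from the block. It was at 321, 276, 278, 346 and 348 CPM in wild-type PBS, at 185, 336 and 194 CPM in knockout PBS, and at 239, 213, 271, 216 and 240 CPM in knockout LCWE. In wild-type LCWE it ran from 242 CPM through a median of 309 to 374 CPM. The 5 knockout LCWE libraries lay below all wild-type PBS libraries, by a small margin (271 against 276 CPM). These groups differ in both genotype and treatment and were not tested against each other. The share of all tested genes that separate this way was not computed. Replicates 1 and 3 of knockout PBS were lowest. Wild-type LCWE replicates 2 and 3, where the block was highest, held the lowest Rpl3l of their group at 247 and 242 CPM. In the number range its log2 fold change with LCWE was -0.22 ± 0.13 (adjusted p = 0.298, edgeR), the lowest of the 80. Rps27 (0.17 ± 0.43), Rpl34 (0.24 ± 0.30) and the paralog Rpl7l1 (0.24 ± 0.10) came next.

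**Figure D5:**
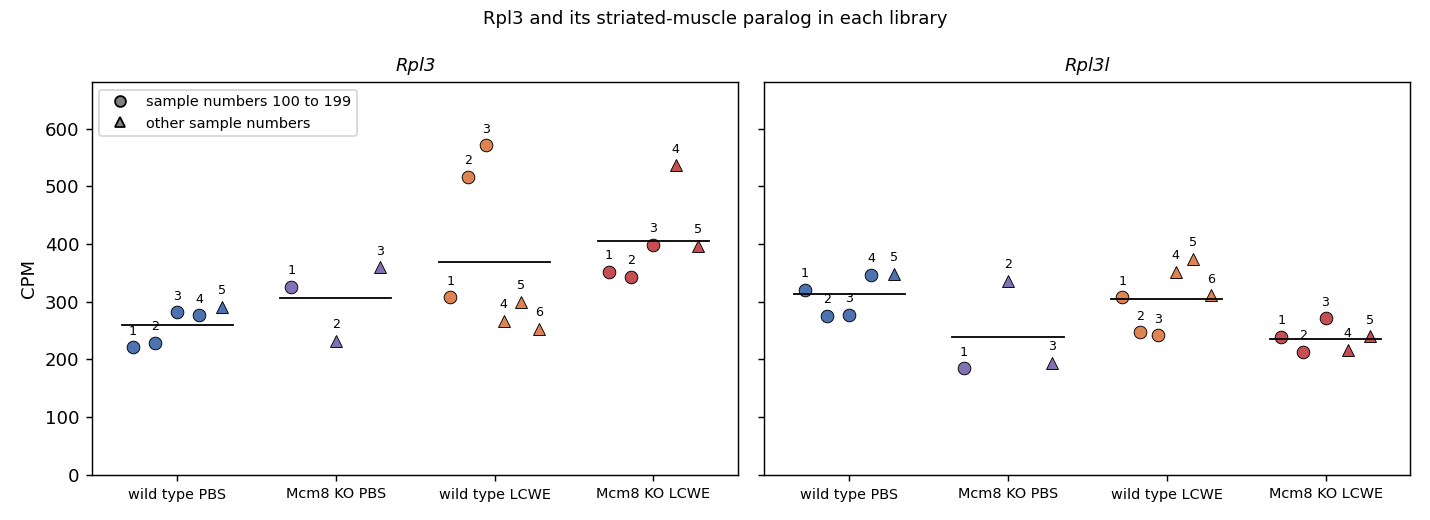
CPM of Rpl3 (left) and Rpl3l (right) in each library, with replicate numbers, group means as horizontal lines, and circles for libraries of the number range. Rpl3 is highest at 571 CPM in wild-type LCWE replicate 3, where Rpl3l is at 242 CPM.

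Rpl3 itself was at 221, 229, 281, 276 and 292 CPM in wild-type PBS, at 325, 232 and 359 CPM in knockout PBS and at 352, 344, 399, 536 and 397 CPM in knockout LCWE. In wild-type LCWE it ran from 253 CPM through a median of 304 to 571 CPM. Knockout PBS replicate 3 held more Rpl3 than any wild-type PBS library, while its block median was -0.10. In the number range Rpl3 rose with LCWE in wild type by 0.86 ± 0.18 on the log2 scale (adjusted p = 0.0192, edgeR). The log2 ratio of Rpl3l to Rpl3 within a library was 0.27 ± 0.20 in wild-type PBS (SD, n = 5), -0.39 ± 0.80 in knockout PBS (n = 3), -0.21 ± 0.74 in wild-type LCWE (n = 6) and -0.77 ± 0.31 in knockout LCWE (n = 5). The knockout LCWE libraries were all between -1.31 and -0.56, and the wild-type PBS libraries all between -0.02 and 0.53. These groups differ in both genotype and treatment, and their ratios were not tested against each other.

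None of the 4 comparisons of this ratio passed a two-sided exact permutation test. The difference was -0.49 for LCWE against PBS in wild type (exact p = 0.251) and -0.38 in the knockout (p = 0.536). It was -0.66 for knockout against wild type under PBS (exact p = 0.179) and -0.55 under LCWE (p = 0.147). Adjusted over the 4 comparisons, these exact p-values were 0.335, 0.536, 0.335 and 0.335. The smallest p the design allows is 0.00433 for the comparisons with 6 wild-type LCWE libraries in them and 0.0357 for the others. Without wild-type LCWE replicates 2 and 3, the difference under LCWE was -1.02 (adjusted exact permutation p = 0.0635) and that of LCWE against PBS in wild type -0.02. Under LCWE the lowest remaining wild-type ratio was then -0.0017 and the highest knockout ratio -0.5569, so the unadjusted p was the smallest these libraries allow. With the other comparisons as they were, its adjusted value could not fall under 0.05, so this test cannot decide. Without knockout PBS replicate 2, edgeR called Rpl3l lower in knockout than in wild type under PBS (-0.73, adjusted p = 0.00663). The 2 libraries left, at 185 and 194 CPM of Rpl3l, also had low sums of the 8 cardiomyocyte markers, 87010 and 79540 CPM, against 100300 CPM in knockout PBS replicate 2 and 95920 to 109900 CPM in wild-type PBS. In knockout LCWE the sum was 85500 CPM in replicate 4 and 103500 to 113600 CPM in the others, which held 213 to 271 CPM of Rpl3l. The part of these markers in the Rpl3l values was not tested. Within the number range the ratio under LCWE differed by 0.17, the other way.

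Among the other paralogs, Rpl22l1, Rps4l and Rpl7l1 stayed below their parents in CPM in every library. Rpl22l1, paralog of the RNA-binding protein Rpl22, was at 7.83, 7.08, 11.5, 12.9 and 10.8 CPM in wild-type PBS and reached 20.5 and 27.8 CPM in wild-type LCWE replicates 2 and 3. Its log2 fold change in the number range was 0.98 ± 0.29 (adjusted p = 0.057, edgeR), beside 0.52 ± 0.16 for Rpl22 (adjusted p = 0.0591). Rps4l, a paralog of the X-linked Rps4x, rose in the number range by 0.59 ± 0.14, and Rps4x by 0.67 ± 0.17. Rps27l, a p53 target, rose by 0.85 ± 0.18 (adjusted p = 0.0226, edgeR), and its parent Rps27 had too few counts for a comparison. Rpl7l1 was not called and Rpl7 rose by 0.57 ± 0.15. Rpl39 rose by 0.85 ± 0.18 and Rpl10 was at 0.54 ± 0.16 (adjusted p = 0.0536, edgeR).

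Genes with and without the pyrimidine run had fold changes in the same range, a comparison that was not tested. In the number range, the 13 tested genes with a run of at least 5 bases at an annotated start had a median log2 fold change of 0.77 and 11 were called, and the 47 tested genes with a promoter entry but no such run had a median of 0.74 with 33 called. Rps6 and Rpl38, shown above, were at 0.50 and 0.91.

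Other translation genes were read from the same fit in the number range, where 8.72% of all genes were called. Among ribosomal protein genes that the names leave out, Fau (0.96 ± 0.18), made as a fusion with a ubiquitin-like protein, Rpl36al (0.77 ± 0.15) and Rack1 (0.56 ± 0.14) rose. Of 18 elongation factors and other TOP mRNAs 4 rose, among them Eef1a1 (0.72 ± 0.15), the main tRNA-delivering factor, and Tpt1 (0.57 ± 0.15), and their median was 0.20. Of 20 initiation factors Eif4a1 (0.41 ± 0.10) and Eif6 (0.40 ± 0.11) rose and Eif2s3x (-0.37 ± 0.09) fell, with a median of -0.02.

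Genes of ribosome production, read from the same fit, gave calls in both directions. There 5.43% of all tested genes were called higher and 8.72% in either direction. Of tested genes other than ribosomal protein genes with transcripts of over 5000 bases, 229 of 2431 were called lower. How far transcript length enters these calls was not tested. Of 41 assembly factors 3 rose, the small nucleolar particle genes Nhp2 (0.82 ± 0.15), Nop10 (0.58 ± 0.15) and Fbl (0.37 ± 0.11), and the median was 0.03. Of 18 genes of RNA polymerase I and its factors, Polr2l (0.78 ± 0.13) rose, and Polr1a (-0.41 ± 0.11), its largest subunit, and the terminator factor Ttf1 (-0.54 ± 0.14) fell. Of 11 entries for small nucleolar RNA hosts and the ribosomal RNA precursor 6 rose, with Snhg8 at 1.23 ± 0.22 and Zfas1 at 0.72 ± 0.14. The precursor Rn45s was at 718, 690, 579 and 491 CPM with PBS and at 2366, 1826 and 1238 CPM with LCWE, a log2 fold change of 1.53 ± 0.20 (adjusted p = 0.00931, edgeR). Its order among the 3 LCWE libraries was not that of the ribosomal protein genes, since replicate 1 held the most Rn45s. In the remaining 12 libraries Rn45s lay between 441 and 739 CPM. Reads of the precursor cannot be told here from reads of mature ribosomal RNA left in the libraries, and the part of either was not tested.

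The 23 genes of mTOR and S6 kinase signalling were read from the same fit, where 8.72% of all tested genes were called. Transcript length was not tested as a part of their calls either. Eif4ebp1, the translation repressor that mTOR inactivates, rose (0.74 ± 0.17). Ddit4, an mTOR inhibitor (-1.15 ± 0.24), Larp1 (-0.57 ± 0.15) and the kinase gene Rps6ka2 (-0.65 ± 0.18) fell. Ddit4 also fell with LCWE in the knockout (-1.49 ± 0.30, adjusted p = 0.0299, edgeR), as did the mTOR inhibitor Deptor (-0.71 ± 0.18). Of 11 genes of the integrated stress response none was called by edgeR in the number range, and 2, Trib3 and Atf4, had an unadjusted p under 0.05. Bax (0.64 ± 0.14) was the only one of 11 p53-related genes called there.

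Among genes of 3 other large protein machines, most calls in the number range were higher. Over all tested genes 5.43% were called higher, and without wild-type LCWE replicate 2, 0.042% were called in either direction. Of tested genes other than ribosomal protein genes with transcripts of over 500 to 750 bases, 38.0% were called higher. The part of transcript length in these calls was not tested. Of 78 mitochondrial ribosomal protein genes 32 rose and none fell (median 0.36, for example Mrpl52 at 0.75 ± 0.15). Of 80 oxidative phosphorylation genes 49 rose (median 0.52, Cox6a1 at 0.93 ± 0.13), and of 38 proteasome genes 10 rose and 1 fell (median 0.32, Psmb3 at 0.61 ± 0.11). Whether these shares differ from that of the cytosolic ribosomal protein genes was not tested.

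Most tested markers of macrophages, neutrophils, and T and NK cells were also higher in the LCWE libraries of the number range. Over all tested genes 5.43% were called higher there. Whether such cells were resident or had entered the heart was not tested. The 10 monocyte and macrophage markers were all called higher in the number range, with C1qb at 1.16 ± 0.12, and their CPM summed to 348 to 428 in the 4 PBS libraries and to 707, 731 and 877 in the 3 LCWE libraries. Of the neutrophil markers 3 of 4 tested rose, with sums of 2.20 to 6.76 CPM in PBS and 8.16, 21.7 and 48.8 CPM in LCWE. Knockout LCWE replicate 4 had the highest sums of all libraries, 1431 CPM for macrophage and 91.0 CPM for neutrophil markers. Its block median was 0.57. Of 3 tested T and NK cell markers 2 rose, the 3 tested B cell markers were not called, of 5 fibroblast markers none was, and of 5 endothelial markers Egfl7 alone rose (0.65 ± 0.15). Wild-type LCWE replicate 1, at 707 CPM for macrophage and 8.16 CPM for neutrophil markers, had a block median of 0.18. Replicate 2, at 731 CPM and 21.7 CPM, had a block median of 0.90. Knockout LCWE replicate 5, at 860 CPM for macrophage and 25.9 CPM for neutrophil markers, lay above replicate 2 of wild-type LCWE in both sums with a block median of 0.17. The part of cell composition in the ribosomal protein values was not tested, and more cells of a type cannot be told from more RNA per cell in tissue libraries. Length offsets lowered the median fold change of the ribosomal protein genes in the number range, as given above. With number range as a covariate over all libraries, none of 131 values of named genes changed between called and not called. What the sample numbers stand for is not stated.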

How the data were processed

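Gene counts per library were deposited by the authors as whole numbers in 1 table of 25239 gene symbols, not normalized. A whole-transcriptome amplification kit made and preamplified the cDNA, per the labels' protocols. The submitters' processing notes name STAR 2.7.8a and GRCm38. The counting program, its strand setting, its treatment of multiply mapped reads and the annotation are not stated in these sources. The labels' genotype and treatment set the groups. Replicate numbers follow accession order and pair no samples. No libraries were duplicates by a chi-square comparison of counts.

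Genes were filtered with filterByExpr (minimum count 10, minimum total 15), leaving 14301. edgeR 4.0.16 (R 4.3.3) fitted all 4 groups with TMM scaling and the robust quasi-likelihood test, adjusting p over all tested genes (threshold 0.05). The 11 libraries of the number range were fitted separately on the same genes. CPM values use TMM-scaled library sizes, and log2 CPM a prior count of 2. Transcript lengths came from GENCODE M21, as the median of principal transcripts. The ratio of Rpl3l to Rpl3 used a pseudocount of 0.5 CPM and an exact permutation test (SciPy 1.17.1). The fits were tested on simulated data. Alternatives were DESeq2 1.42.0, limma-voom 3.58.1, other scalings and filters, length offsets, a covariate for number range and leaving out libraries.

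Named were, per comparison, the 6 called members with the smallest p in each direction (or 3 as values), the 3 lowest and highest fold changes, a fixed set of paralogs, stalk and other genes, and up to 4 called genes of each other list. Members and lists were chosen with earlier results of these data known.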

Additional observations from a re-analysis of the deposited data

Results flagged for a closer look

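In groups of 5 or 6 libraries, 99 sets of values were checked for a library that stands apart by Dixon's criterion, which chance meets in about 1 in 20, and 6 did. Of these, 5 were in knockout LCWE replicate 4. There the log2 ratio of Rpl3l to Rpl3 was lowest at -1.31 (nearest library -0.72). Log2 CPM was highest for Rplp1 at 10.07 (nearest 9.62), Rps19 at 7.82 (7.31), Rps28 at 7.37 (6.78) and Rps21 at 7.88 (7.40). The remaining one was Rpl39 in wild-type PBS replicate 2, lowest at 5.89 (nearest 6.28). The block median and the share of all counts were also checked, and knockout LCWE replicate 4 did not meet the criterion in them. Wild-type LCWE replicates 2 and 3, which stood apart together, do not meet a criterion made for 1 library.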

How the results depend on the processing

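Length offsets moved the median log2 fold change for LCWE against PBS in wild type from 0.43 to 0.15 over all libraries and from 0.75 to 0.27 in the number range, where 5 genes were called instead of 64 and Rplp2 turned to -0.13. They moved the median for knockout against wild type under LCWE in the number range from -0.53 to -0.14. Fitting only the groups compared gave 36 calls. DESeq2 gave 30 calls for knockout against wild type under LCWE in the number range. Leaving out 1 library at a time gave 0 to 77 calls for LCWE in wild type in the number range, 0 to 74 for knockout against wild type under LCWE there, and 0 to 1 for knockout against wild type under PBS.

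Leaving out wild-type LCWE replicates 2 and 3, an alternative chosen after seeing the data, moved the medians to 0.075 (LCWE in wild type), 0.17 (knockout against wild type under LCWE) and 0.17 (interaction), and in the number range to 0.21 with 0 calls (LCWE in wild type) and to 0.0035 (knockout against wild type under LCWE). There it leaves 1 wild-type LCWE library, assumed to vary like the other groups, so these 0 calls say nothing about stability. It gave 2 calls for LCWE in the knockout, and 1 with knockout LCWE replicate 4 left out too, when the wild-type median was again 0.075. The ratio of Rpl3l to Rpl3 turned to 0.17 for knockout against wild type under LCWE in the number range, and leave-one-out values ran from -0.63 to 0.085 for LCWE in the knockout. Among named genes, 129 calls were lost with the direction kept, 1 (Rplp2 with length offsets) was lost with its direction turned, and 55 were gained, over 5398 values. The cause was not tested in any case except where fewer libraries entered. Groups hold 3 to 6 libraries, and 1 to 4 in the number range. Rps27 and Rpl34 also had few counts.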
